A study of Mus musculus with 12 samples.

Results

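The vomeronasal receptor genes described here are the rows of the count table whose symbols begin with Vmn1r (type 1) or Vmn2r (type 2), pseudogenes included, and whose counts summed to at least 12 over all 12 libraries. The members were thus selected on symbol and summed count, and their totals are given as description. Of 593 rows with such symbols, 46 met that minimum, among 55487 rows in the whole table. They comprised 27 type 1 rows, 20 of them protein-coding and 7 pseudogenes, and 19 type 2 rows, 14 of them protein-coding and 5 pseudogenes. Of the other rows, 382 held no count in any library and 165 held 1 to 11. At the edge of the rule, Vmn1r-ps100, Vmn1r188 and Vmn2r102 were kept with 12 counts each, and Vmn2r6 was left out with 10.

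The libraries came from nasal tissue of male C57BL/6 mice aged 6 weeks, labelled as nasal epithelium. There were 4 libraries from PBS vehicle at day 10 (replicates 2, 4, 5 and 6), 4 from KDP20 at day 5 (replicates 5, 6, 7 and 8) and 4 from KDP20 at day 10 (replicates 1, 2, 3 and 5). The series concerns nasal dysfunction after exposure to diesel particles, and the labels do not define KDP20 further. No vehicle library is labelled day 5, so exposure and day cannot be told apart in the day 5 comparison. Nothing in the labels ties a library to its own animal. The p-values therefore reflect variation among libraries, which may be technical.

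Vomeronasal receptors are G protein-coupled receptors of sensory neurons in the vomeronasal organ, a paired tube at the base of the nasal septum that detects pheromones and other social odours. Type 1 receptors have a short extracellular end and signal through Gnai2, and type 2 receptors carry a large extracellular domain and signal through Gnao1. Both gene families lie in large clusters, each with many pseudogenes, and both neuron classes use the channel Trpc2.

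Library totals ran from 1658420 to 3227138 counts, so that 3 counts, the limit that a count of 0 allows, equalled 0.93 to 1.81 counts per 1000000 library counts (CPM). The row CT010467.2 alone held 7.25% to 12.6% of the counts in the vehicle and day 5 libraries and, at day 10, 11.2% in replicate 1, 25.5% in replicate 2, 17.9% in replicate 3 and 22.9% in replicate 5. Among rows of genes that nearly every cell uses, Actb had 23 to 217 counts per library, Eef1a1 34 to 186, B2m 0 to 8 and Gapdh 212 to 440. These 4 genes were picked with their counts in view. The row Gm15883, on the strand opposite the club cell gene Cyp2f2, held 598300 counts against 1831 in the Cyp2f2 row. By a chi-square of the counts per row, day 10 replicate 1 stood apart from the other day 10 libraries, at 9.86 to 19.8 against 4.57 to 6.02 among those 3. This chi-square was taken without TMM (trimmed mean of M-values) scaling and with CT010467.2 kept in, so differences in that row's share enter it. By that share, replicate 1 lay within the range of the vehicle and day 5 libraries, and replicates 2, 3 and 5 lay above it. The strand setting of the counting is not given in the sources used here, so a receptor row is read below as counts assigned to that gene, and what share came from the receptor's own transcript was not tested.

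The receptor rows were sparse. The 46 rows held 4259 counts in all, 2501 of type 1 (0.00976% of all counts) and 1758 of type 2 (0.00686%). A median of 33.0 counts per row was spread over 12 libraries, and 16 of the 46 had a count in every library. The single most abundant type 1 row, Vmn1r184, made up 21.2% of the type 1 sum, the top pair 41.5% and the top 4 rows 65.7%. The corresponding type 2 values were 19.1%, 33.7% and 54.2%. Chromosome 7 carried 13 of the 46 rows, chromosome 6 carried 11 and chromosome 17 carried 8, out of 262, 92 and 78 rows with receptor symbols there.

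Pseudogenes contributed as many counts as protein-coding genes. The 12 pseudogenes held 2131 counts and the 34 coding genes 2128. Pseudogenes were also shorter, with a median exon length of 940.5 bases against 8040.5, so that the median level per length was 107 counts per kb of exon for pseudogenes and 4.58 for coding genes. Per kb, the highest level was 887 in Vmn1r-ps136, followed by 692 in Vmn1r-ps150, 429 in Vmn1r-ps145 and 385 in Vmn2r-ps88. The highest coding genes were Vmn1r21 with 149 and Vmn1r184 with 62.4 counts per kb. Counts were summed per row by the authors, and a minimum on the summed count is easier to reach for long genes. A short row with few counts per kb cannot be a member. The lengths of the members and their levels per kb are therefore partly set by the rule. Over all rows with receptor symbols, 197 of 238 pseudogenes and 185 of 355 coding genes held no count. Members made up 5.04% of these pseudogenes and 9.58% of these coding genes.

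**Figure D1:**
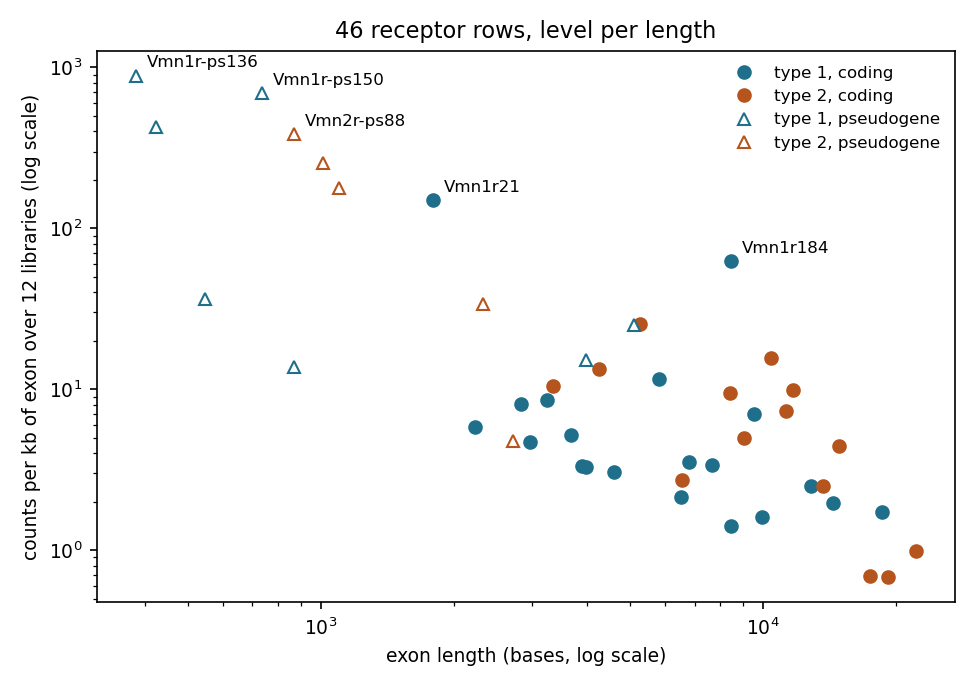
Level per length of the 46 receptor rows: exon length in bases (x, log scale) against counts per kb of exon summed over 12 libraries (y, log scale), with filled circles for coding genes and open triangles for pseudogenes. The short pseudogenes sit at the upper left, led by Vmn1r-ps136 with 887 counts per kb, and most coding genes lie under 20. The minimum of 12 counts keeps out short rows with few counts per kb, so this pattern is partly set by the rule.

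Receptor genes share sequence with their relatives, which bears on which row a read is counted in. Vmn1r184 (chr7:26260334-26270619, plus strand, 4 exons) is the member with the most counts, and its closest relative is Vmn1r185, with 94.5% identity over 942 aligned coding bases. The first 300 coding bases of Vmn1r184 and the aligned bases of Vmn1r185 are given to show how near the pair are, with capitals at the 10 positions that differ.
Vmn1r184: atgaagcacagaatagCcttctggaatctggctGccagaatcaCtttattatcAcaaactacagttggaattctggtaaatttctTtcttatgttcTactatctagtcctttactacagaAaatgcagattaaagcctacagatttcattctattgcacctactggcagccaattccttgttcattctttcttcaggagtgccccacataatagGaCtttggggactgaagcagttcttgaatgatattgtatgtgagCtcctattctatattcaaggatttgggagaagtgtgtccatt
Vmn1r185: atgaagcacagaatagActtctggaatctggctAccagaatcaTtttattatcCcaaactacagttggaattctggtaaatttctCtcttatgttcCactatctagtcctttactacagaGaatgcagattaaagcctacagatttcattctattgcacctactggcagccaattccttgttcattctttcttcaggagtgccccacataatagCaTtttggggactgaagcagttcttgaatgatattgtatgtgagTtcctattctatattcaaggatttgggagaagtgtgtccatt
The Vmn1r184 row held 529 counts and the Vmn1r185 row 4. Of the 50-base windows of the Vmn1r184 transcripts, 8.2% also occur in transcripts of other genes, most of them in Vmn1r185, so the remaining windows are found in no other annotated gene.

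The type 2 member with the most counts, the pseudogene Vmn2r-ps88 (chr8:3139098-3139968, plus strand, 1 exon), was 94.8% identical to Vmn2r-ps25 (chr5:151435966-151461865) over 872 aligned bases. The 300-base stretch is shown because both of these near-copies are members, with capitals at the 11 differing positions.
Vmn2r-ps88: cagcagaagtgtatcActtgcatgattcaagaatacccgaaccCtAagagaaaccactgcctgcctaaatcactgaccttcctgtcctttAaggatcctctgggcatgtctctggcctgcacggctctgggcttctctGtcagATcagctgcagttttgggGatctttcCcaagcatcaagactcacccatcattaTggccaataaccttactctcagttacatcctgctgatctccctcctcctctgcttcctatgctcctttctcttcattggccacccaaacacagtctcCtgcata
Vmn2r-ps25: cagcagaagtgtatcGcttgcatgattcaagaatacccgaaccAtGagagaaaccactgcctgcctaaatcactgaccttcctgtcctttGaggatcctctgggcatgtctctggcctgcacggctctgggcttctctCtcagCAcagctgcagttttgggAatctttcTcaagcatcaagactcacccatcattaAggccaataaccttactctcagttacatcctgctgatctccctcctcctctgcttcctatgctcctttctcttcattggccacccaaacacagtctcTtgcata
Vmn2r-ps88 held 335 counts and Vmn2r-ps25 held 79. In Vmn2r-ps88, 23.2% of 50-base windows occur in another gene's transcripts, chiefly Vmn2r18.

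A pair of abundant type 1 pseudogenes had no near-copy. Vmn1r-ps150 (chr17:21323031-21323766, minus strand, 1 exon) and Vmn1r-ps145 (chr17:20969061-20969484, minus strand, 1 exon) shared none of their 50-base windows with another annotated gene. A 300-base stretch of each is printed because no other annotated transcript is nearly identical to either, with capitals over the bases that align to the closest coding receptor, Vmn1r72 at 70.1% over 154 bases for the former and Vmn1r237 at 71.4% over 217 bases for the latter.
Vmn1r-ps150: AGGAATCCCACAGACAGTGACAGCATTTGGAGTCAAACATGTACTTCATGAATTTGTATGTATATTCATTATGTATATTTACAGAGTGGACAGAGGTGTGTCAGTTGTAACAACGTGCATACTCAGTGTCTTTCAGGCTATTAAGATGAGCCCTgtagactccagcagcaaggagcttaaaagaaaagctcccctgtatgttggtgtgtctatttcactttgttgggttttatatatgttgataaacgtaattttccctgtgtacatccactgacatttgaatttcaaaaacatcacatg
Vmn1r-ps145: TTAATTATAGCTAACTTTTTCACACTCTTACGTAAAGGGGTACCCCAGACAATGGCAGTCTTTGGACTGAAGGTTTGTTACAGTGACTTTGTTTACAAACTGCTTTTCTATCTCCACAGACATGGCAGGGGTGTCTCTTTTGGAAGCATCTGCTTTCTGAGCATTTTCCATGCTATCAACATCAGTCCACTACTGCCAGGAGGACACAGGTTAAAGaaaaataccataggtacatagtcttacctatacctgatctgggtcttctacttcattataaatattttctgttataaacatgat
All 4 pseudogene stretches come from the annotated transcripts and the Vmn1r184 and Vmn1r185 stretches from their coding parts, in GENCODE M21 (GRCm38).

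Among the remaining abundant members, shared sequence varied widely. Vmn2r-ps89 lies opposite exons of the ceramide synthase gene Cers4 over 886 bases, and 87.1% of its 50-base windows are Cers4 transcript read on the other strand. The Cers4 row held 32 counts and the Vmn2r-ps89 row 258. Vmn2r30 shared 47.7% of its windows with other genes and was 99.4% identical to Vmn2r47 in coding sequence, whereas Vmn2r65 shared 0.3%. Vmn1r-ps136 was 95.8% identical to Vmn1r-ps50, a row with no counts. Vmn2r-ps88 lies within Insr, the insulin receptor gene on the other strand (111 counts), and Vmn1r-ps136 within Spryd7, also on the other strand (29 counts). In all, 14 of the 46 members shared at least 50 exon bases with another gene, 11 of them with one on the opposite strand. For those rows the source of a count is uncertain. Vmn2r-ps88 and Vmn1r-ps136 share no exon bases with the genes around them and are not among the 14. The source of their counts, and of those in the remaining rows, was not tested either.

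Of the 46 members, 12 passed the filter on low counts and were tested, 6 of each type. At day 10 against vehicle, 1 of the 12 passed the test, the type 1 coding gene Vmn1r184, which was lower. Over all 13181 rows tested, 7.08% were called, 3.93% higher and 3.15% lower. At day 5 against the same vehicle libraries, 2 of the 12 passed, with Vmn1r184 lower and the type 1 pseudogene Vmn1r-ps150 higher, where 0.66% of all rows were called, 0.41% higher and 0.25% lower. DESeq2 also called Vmn1r184 at day 10, while at day 5 it called 0 members and gave no adjusted p (NA) for either of these rows. No type 2 member passed in either comparison, and none of the 12 passed between day 10 and day 5. Both comparisons share the vehicle libraries.

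Vmn1r184 held 81, 140, 53 and 44 counts in vehicle replicates 2, 4, 5 and 6. It held 17, 30, 33 and 29 counts in day 5 replicates 5, 6, 7 and 8, and 25, 15, 37 and 25 counts in day 10 replicates 1, 2, 3 and 5. The vehicle libraries were the highest, and every day 5 library was below every vehicle library. At day 10 replicate 3, with 23.2 CPM, reached above vehicle replicate 6, with 19.9 CPM. In CPM scaled by trimmed mean of M-values (TMM), the level was 29.9 ± 8.32 in vehicle, 12.9 ± 3.82 at day 5 and 15.2 ± 5.62 at day 10 (SD, n = 4). The log2 fold change was -1.23 (SE 0.29) at day 5, with an adjusted p of 0.0464 by edgeR's quasi-likelihood test, and -0.99 (SE 0.29) at day 10, with an adjusted p of 0.0398. Between day 10 and day 5 it was 0.24 (SE 0.31, adjusted p = 0.696). Both calls lie close to the threshold. The day 10 call was lost without vehicle replicate 2 (adjusted p = 0.106), 4 (0.136) or 5 (0.0573) or day 10 replicate 2 (0.138) or 5 (0.118), and the day 5 call without vehicle replicate 2 (0.185), 4 (0.175) or 6 (0.0602) or any day 5 library (0.0593 to 0.185).

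With the CT010467.2 share entered as a covariate, the day 10 change of Vmn1r184 was -0.57 (edgeR adjusted p = 0.999), in a fit that called 0 of 13181 rows, and the day 5 change was -1.13 (adjusted p = 0.0358). Within day 10, replicate 1, with the lowest share, stood at 12.9 CPM and replicate 3 at 23.2 CPM. Without day 10 replicates 2, 3 and 5 the change was -1.23, but this leaves 1 day 10 library, assumed to vary like the other groups, so the absence of a call there (0 of 13181 rows) says nothing about stability. Both settings were chosen after seeing the data.

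The 4 other rows with at least 12 counts on the same strand within 40 kb of Vmn1r184 were sparse. Vmn1r-ps86, a pseudogene member 4708 bases upstream, held 15 counts over the vehicle libraries, 4 at day 5 and 1 at day 10. Gm8902, 12376 bases upstream, held 22, 6 and 4, Gm44964, 21759 bases downstream, held 18, 5 and 14, and Cyp2a4, 36550 bases downstream, held 18, 10 and 18. None of these 4 reached the filter for testing. On the other strand, Gm42375, 33802 bases downstream, held 376, 268 and 180 counts and was not called (edgeR adjusted p = 0.324 at day 10 and 0.784 at day 5).

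Vmn1r-ps150, whose printed sequence has no near-copy, held 43, 31, 14 and 29 counts in vehicle replicates 2, 4, 5 and 6. In day 5 replicates 5, 6, 7 and 8 it held 62, 71, 97 and 42, and in day 10 replicates 1, 2, 3 and 5 it held 49, 13, 33 and 25. All day 5 libraries were above all vehicle libraries after scaling, and the day 10 libraries overlapped both groups. The level ran from 7.11 to 17.8 CPM in vehicle (mean 11.7), from 21.2 to 45.3 at day 5 (mean 31.7) and from 8.93 to 25.2 at day 10 (mean 17.3). The log2 fold change was 1.44 (SE 0.32, edgeR adjusted p = 0.0384) at day 5 and 0.58 (SE 0.33, adjusted p = 0.297) at day 10, both against vehicle. The change from day 5 to day 10 was -0.86 (SE 0.31, adjusted p = 0.083). Leaving out each library in turn gave -1.11 to -0.64, and 1 of 12 fits passed, the one without day 10 replicate 1 (adjusted p = 0.017). That library differed from the other day 10 libraries by the unscaled chi-square above and held the highest day 10 value of this row. The share of all rows called in that fit is not given here. The day 5 call was lost without vehicle replicate 4 (adjusted p = 0.127), 5 (0.0504) or 6 (0.0768) or day 5 replicate 5 (0.0932), 6 (0.103) or 7 (0.0873), and with CT010467.2 as a covariate it held at 1.66 (adjusted p = 0.00558).

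Vmn1r-ps145 was lower in both exposed groups without passing the test. It held 21, 28, 29 and 23 counts in vehicle replicates 2, 4, 5 and 6, then 9, 10, 13 and 13 in day 5 replicates 5 to 8, and 9, 11, 8 and 8 in day 10 replicates 1, 2, 3 and 5. All exposed libraries were below all vehicle libraries, at 7.83 to 14.7 CPM in vehicle, 3.82 to 6.55 at day 5 and 4.57 to 7.55 at day 10. The log2 fold change was -0.95 (SE 0.37, edgeR adjusted p = 0.195) at day 5 and -0.93 (SE 0.38, adjusted p = 0.133) at day 10. It was the only tested member whose day 10 and vehicle libraries did not overlap, where 9.98% of all tested rows did not. At day 5, 4 tested members did not overlap vehicle, Vmn1r-ps150 higher and Vmn1r184, Vmn1r-ps145 and Vmn2r-ps88 lower, beside 11.6% of all tested rows. Between day 10 and day 5 no tested member was free of overlap, beside 12.5% of all rows.

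The other 3 tested type 1 rows did not pass the test. Vmn1r-ps136 lay between 12.2 and 16.2 CPM in vehicle, between 11.9 and 19.2 at day 5 and between 6.90 and 15.4 at day 10, with a day 10 change of -0.36 (SE 0.30). Vmn1r21, a coding gene on chromosome 6 that shares 106 exon bases with the opposite row Gm44114, lay between 7.55 and 16.7 CPM in vehicle and between 7.72 and 10.7 at day 10, a change of -0.27 (SE 0.34). Vmn1r-ps144 lay between 2.54 and 8.61 CPM in vehicle and between 1.37 and 5.14 at day 10, a change of -1.03 (SE 0.53, edgeR adjusted p = 0.243).

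**Figure D2:**
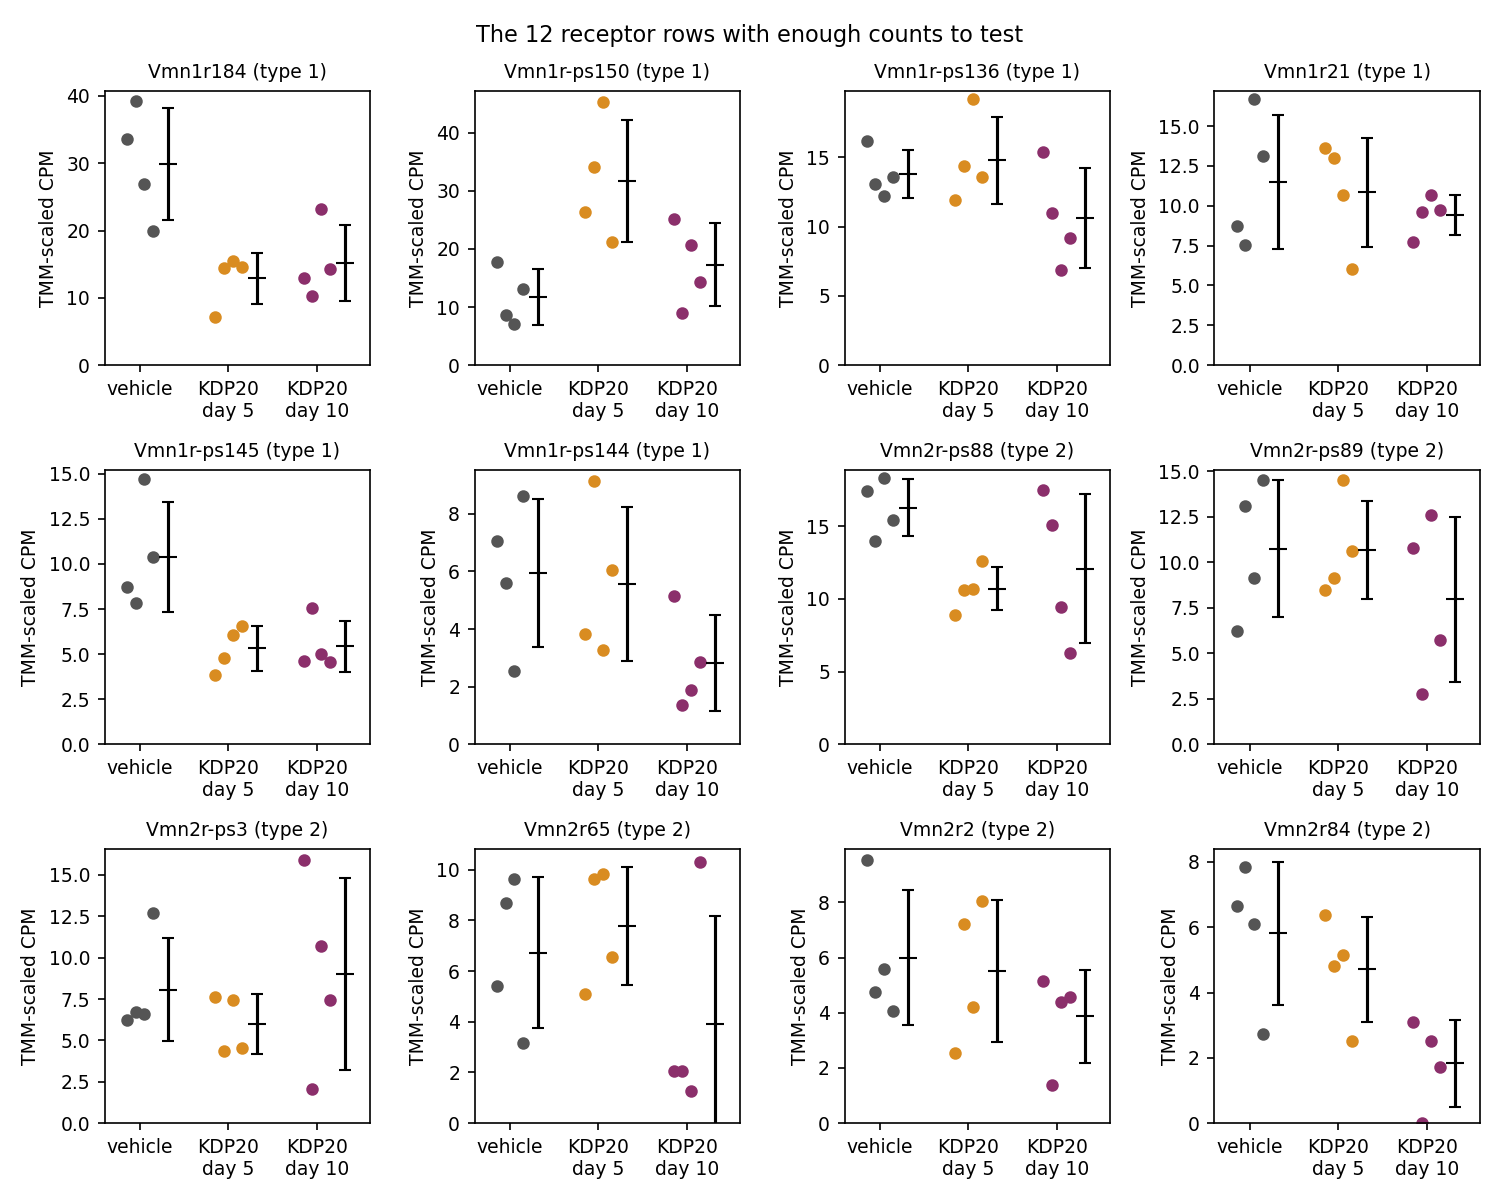
TMM-scaled CPM (y) of the 12 tested receptor rows in each of the 12 libraries (points), by group (x), with the mean and SD beside each group (bars, n = 4). The axes start at 0, which cuts the lower SD bar of Vmn2r65 at day 10. Vmn1r184 is highest in vehicle, and Vmn1r-ps150 lies between 21.2 and 45.3 CPM at day 5, above all 4 vehicle libraries.

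Among type 2 members, Vmn2r84 had the most negative fold change at day 10. It held 16, 28, 12 and 6 counts in vehicle replicates 2, 4, 5 and 6, then 15, 10, 11 and 5 in day 5 replicates 5 to 8, and 6, 0, 4 and 3 in day 10 replicates 1, 2, 3 and 5. Day 10 replicate 1, with 3.09 CPM, was above vehicle replicate 6, with 2.72 CPM, so the groups overlapped. A count of 0 in day 10 replicate 2 allows up to 3 counts, which equal 2.06 CPM on this TMM scale. The log2 fold change was -1.61 (SE 0.58, edgeR adjusted p = 0.091) at day 10 against vehicle, -0.31 (SE 0.50, adjusted p = 0.821) at day 5 and -1.30 (SE 0.60, adjusted p = 0.18) from day 5 to day 10. Leaving out each library in turn gave -1.99 to -1.24 at day 10 against vehicle, and 1 of 12 fits passed (edgeR adjusted p = 0.0381). It was the fit without day 10 replicate 1, which differed from its group by the unscaled chi-square and held the highest day 10 value of this row. The share of all rows called in that fit is not given here.

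Vmn2r-ps88, printed above with its near-copy, held 42, 50, 36 and 34 counts in vehicle replicates 2, 4, 5 and 6. In day 5 replicates 5 to 8 it held 21, 22, 23 and 25, and in day 10 replicates 1, 2, 3 and 5 it held 34, 22, 15 and 11. The 4 day 5 libraries, at 8.92 to 12.6 CPM, were all below vehicle, at 14.0 to 18.3 CPM, and the day 10 libraries spanned both, at 6.28 to 17.5 CPM. The fold change was -0.60 (SE 0.30, edgeR adjusted p = 0.323) at day 5 and -0.42 (SE 0.30, adjusted p = 0.423) at day 10. Its near-copy Vmn2r-ps25 held 39, 20 and 20 counts over vehicle, day 5 and day 10 and was not tested. Insr, the gene around Vmn2r-ps88, held 40, 54 and 17.

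Vmn2r65 held 13, 31, 19 and 7 counts in vehicle replicates 2, 4, 5 and 6, then 12, 20, 21 and 13 in day 5 replicates 5 to 8, and 4, 3, 2 and 18 in day 10 replicates 1, 2, 3 and 5. The day 10 value was high in replicate 5 alone, and the other 3 day 10 libraries held 1.26 to 2.06 CPM. The change from day 5 to day 10 was -0.96 (SE 0.54, edgeR adjusted p = 0.287). Leaving out each library in turn gave -2.07 to -0.67, and 1 of 12 fits passed, the one without day 10 replicate 5 (adjusted p = 0.0373). Leaving out the single high day 10 value lowers the change by construction, so that pass is no support for a fall. The pseudogene Vmn2r-ps3 had the highest fold change between day 10 and day 5, 0.61 (SE 0.45, adjusted p = 0.446), with day 10 libraries between 2.06 and 15.9 CPM. Vmn2r-ps89, the row opposite Cers4, changed by -0.42 (SE 0.39) at day 10, and Vmn2r2 by -0.59 (SE 0.50).

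As a group, the 12 tested rows had fold changes between -1.61 and 0.58 at day 10 against vehicle, with a median of -0.51 against -0.01 over all tested rows, and 10 of 12 were negative beside 50.9% of all rows. At day 5 the range was -1.23 to 1.44, the median -0.12 against -0.03, and 9 of 12 were negative beside 52.6%. From day 5 to day 10 the median was -0.43 against 0.01, with 8 of 12 negative beside 48.8%. In that comparison edgeR called 0 of 12, where 4.66% of all rows were called higher and 5.49% lower, and DESeq2 also called 0. Of the 12, 2 had an unadjusted p under 0.05, as did 24.7% of all rows. The tested rows are those with most counts, so these medians describe them and not all members. A sparse row could also pass the filter through the groups where it was high, as Vmn2r84 did with 62, 41 and 13 counts over vehicle, day 5 and day 10. The sign of such a row is partly set by the filter, so the medians and signs are description and no support for a shift. Of the 34 members too sparse to test, the mean CPM at day 10 was above vehicle in 19 and below it in 15, and at day 5 it was above in 14 and below in 20.

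**Figure D3:**
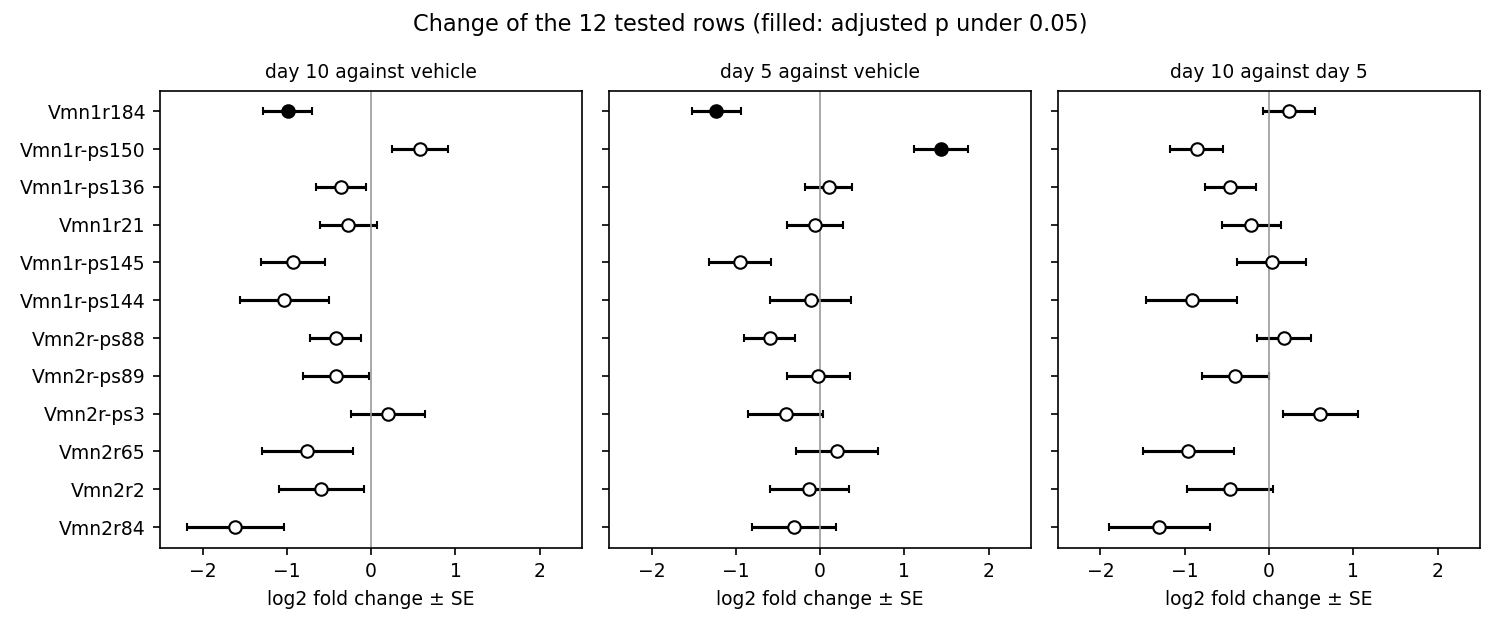
Log2 fold change (x, points) with its SE (bars) of the 12 tested receptor rows in the 3 comparisons, filled where the adjusted p was under 0.05. Vmn1r184 is filled against vehicle at both days and Vmn1r-ps150 at day 5, and no point is filled between day 10 and day 5.

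The untested members were mostly low in every library. Vmn2r24 held 83 counts and Vmn2r30 80, and the type 1 genes Vmn1r16 and Vmn1r183 held 67 each. Vmn2r24 and Vmn2r25 share exon bases on opposite strands, with 24, 35 and 24 counts for the former and 7, 14 and 24 for the latter over vehicle, day 5 and day 10. Vmn2r30 lies opposite Gm45415 over 2074 bases. Vmn2r30 itself held 41, 21 and 18 counts and was not tested, and Gm45415 held 137, 239 and 101 and was not called (day 5 change of Gm45415 0.97, edgeR adjusted p = 0.11). The Vmn2r102 row, at the minimum of 12 counts, had 8 of them in day 10 replicate 2, and Vmn2r113 and Vmn2r128 had 5 of 13 there.

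Summed over members, the type 1 share of the library was 136, 112, 95.8 and 107 CPM in vehicle replicates 2, 4, 5 and 6. It was 87.4, 113, 116 and 81.3 CPM in day 5 replicates 5 to 8, and 91.9, 51.6, 89.2 and 67.8 CPM in day 10 replicates 1, 2, 3 and 5. All 4 day 10 libraries were below all 4 vehicle libraries, and the day 5 libraries overlapped both groups. With CT010467.2 taken out of the denominator the separation was lost, since day 10 replicate 3 then stood at 109 CPM and vehicle replicate 5 at 107. The means were 113 ± 16.7 in vehicle, 99.4 ± 17.6 at day 5 and 75.1 ± 19.1 at day 10 (SD, n = 4). Counting error alone gave 95% Wilson intervals reaching up to 16.4 CPM from the value. No test was made on sums, since the members were chosen with results of these data known.

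Within the type 1 sum, Vmn1r184 and Vmn1r-ps150 moved in opposite directions at day 5. Without Vmn1r184 and Vmn1r-ps150 it was 68.3 CPM in vehicle, 55.8 at day 5 and 44.7 at day 10. The coding part had means of 64.3, 39.7 and 38.4 CPM, and the exposed libraries, at 24.9 to 50.7 CPM, lay below vehicle, at 55.2 to 76.5. Vmn1r184 held 318 of the 620 vehicle counts of the coding genes. Without it the libraries overlapped, at 26.6 to 39.4 CPM in vehicle, 19.2 to 34.1 at day 5 and 16.0 to 28.3 at day 10. With Vmn1r184 kept and CT010467.2 out of the denominator, day 10 replicate 3 (61.7 CPM) was above vehicle replicates 5 and 6 (61.4 each). The pseudogene part was 48.6 ± 8.63, 59.7 ± 14.5 and 36.7 ± 12.8 CPM, with overlap between all groups.

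The type 2 share was 82.0, 84.3, 78.8 and 70.9 CPM in vehicle replicates 2, 4, 5 and 6. It was 55.6, 61.8, 76.0 and 62.1 CPM in day 5 replicates 5 to 8, and 79.0, 45.0, 64.5 and 51.6 CPM in day 10 replicates 1, 2, 3 and 5. Each exposed group overlapped vehicle through 1 library, day 5 replicate 7 and day 10 replicate 1. The latter differed from its group by the unscaled chi-square above. The means were 79.0 ± 5.83, 63.9 ± 8.59 and 60.0 ± 15.0 CPM (SD, n = 4). Coding genes gave 37.8, 34.5 and 28.6 CPM and pseudogenes 41.2, 29.4 and 31.4 CPM.

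These shares depend on what else is in the library. With CT010467.2 taken out of the denominator, the type 1 means were 123, 112 and 92.3 CPM and the type 2 means 86.4, 71.6 and 73.7 CPM. With the full library total as denominator, the 120 olfactory receptor rows that met the same minimum summed to 494 ± 35.4 CPM in vehicle, 421 ± 45.9 at day 5 and 309 ± 71.5 at day 10 (SD, n = 4). On that denominator the type 1 means were 113, 99.4 and 75.1 CPM and the type 2 means 79.0, 63.9 and 60.0 CPM. The part of CT010467.2 in the member sums beyond the denominator was not tested. In bulk tissue, fewer cells of a type and less RNA per cell cannot be told apart.

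The receptor rows below the minimum were highest in day 10 replicates 2 and 3. Their sum was 13.2 to 19.7 CPM in the vehicle and day 5 libraries and, at day 10, 18.6 in replicate 1, 45.6 in replicate 2, 28.9 in replicate 3 and 13.3 in replicate 5. The number of receptor rows with any count was 57 to 69 in the vehicle and day 5 libraries and 64, 85, 67 and 56 in day 10 replicates 1, 2, 3 and 5. In replicate 2, 52 of the rows below the minimum had a count, against 21 to 32 in the other 11 libraries. Olfactory receptor rows with any count numbered 220 there, against 166, 138 and 143 in day 10 replicates 1, 3 and 5, and 168 to 243 in vehicle and day 5. All rows with a count numbered 22533 there, against 22602, 21889 and 21529 in day 10 replicates 1, 3 and 5. Replicate 2 also had the highest CT010467.2 share, and whether that share and these row numbers are linked was not tested.

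**Figure D4:**
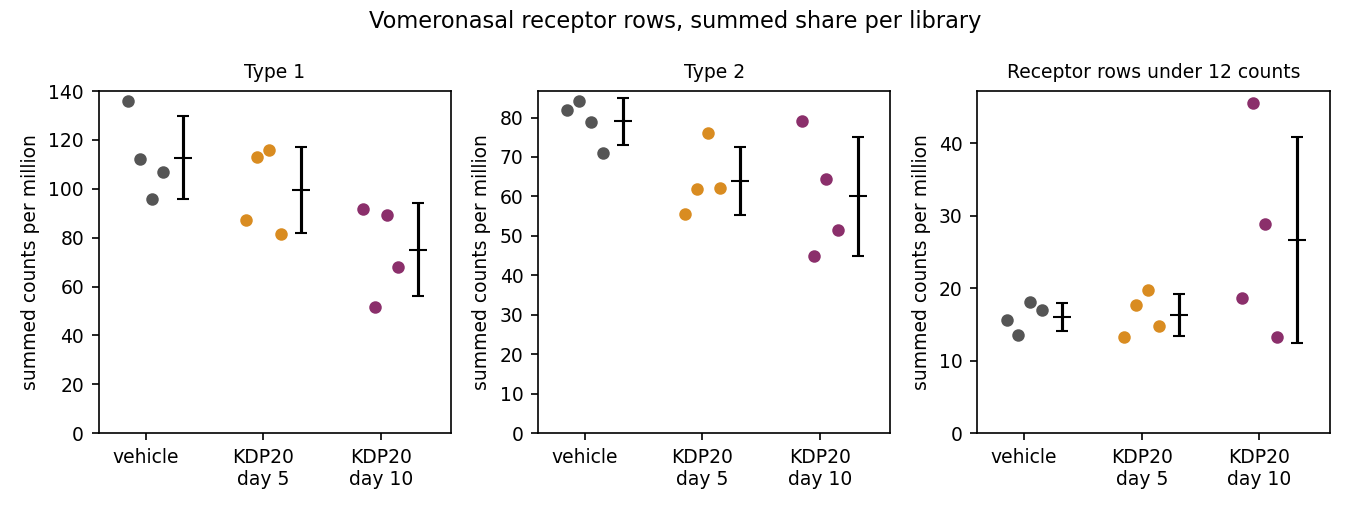
Summed CPM of library total (y) of the type 1 members, the type 2 members and the receptor rows under 12 counts, per library (points) and group (x), with mean and SD (bars, n = 4). With the library total as denominator, the day 10 type 1 sums lie at 51.6 to 91.9 CPM against 95.8 to 136 in vehicle, a separation lost without CT010467.2, and day 10 replicates 2 and 3 stand at 45.6 and 28.9 CPM among the rows under 12 counts.

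Other genes of the vomeronasal system gave a mixed picture. The Trpc2 row was 0 in all 12 libraries, but 2803 of its 2874 exon bases lie in exons of Xntrpc on the same strand, a row with 8 counts, so this row cannot check for vomeronasal neurons. The 5 formyl peptide receptor genes found in the table (Fpr-rs3, Fpr-rs4, Fpr-rs6, Fpr-rs7 and Fpr3), which mark a further set of vomeronasal neurons, were at 0 in every library. The H2-Mv genes, nonclassical major histocompatibility genes of type 2 receptor neurons, ranged from 0 counts in H2-M1 and H2-M9 to 633 in H2-M10.2, and 5 of the 9 were tested with none called in any comparison, beside 7.08% of all rows at day 10 and 0.66% at day 5. Of 12 genes of main olfactory neurons, 9 were tested and none was called either, against the same background. The 12 summed to 330 to 502 CPM in vehicle, 343 to 494 at day 5 and 321 to 436 at day 10. The 2 largest of these rows, Gnal (2949 counts) and Adcy3 (2738), share exon bases with the opposite rows Mppe1 (89624) and Cenpo (83390). Ebf2 (1162) likewise lies opposite Gm10860 (24886). What share of this sum came from the listed genes' own transcripts was not tested.

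Signalling genes behind the receptors mostly did not pass. Of 13 transduction genes, 10 were tested and 1 rose at day 10 against vehicle, Plcb2, a phospholipase C, by 1.11 (SE 0.30, edgeR adjusted p = 0.0268), beside 3.93% of all rows called higher. Its counts were 44, 37, 22 and 37 in vehicle replicates 2, 4, 5 and 6 and 36, 55, 59 and 51 in day 10 replicates 1, 2, 3 and 5. The median of the 10 was -0.18 at day 10 and -0.09 at day 5. Among the 10, Gng13 (313 counts) and Itpr3 (306) share exon bases with the opposite rows Chtf18 (75303) and Itpr3os (3109). Gnai2, the type 1 partner, changed by -0.08 (SE 0.22) at day 5, and Gnao1, the type 2 partner, by -0.23 (SE 0.24) at day 10 and -0.31 (SE 0.23) at day 5, in a row whose exons overlap 4930488L21Rik (9322 counts) on the other strand. Of 15 identity and wiring genes, 12 were tested and none was called against vehicle (7.08% of all rows at day 10). Kirrel3, an adhesion molecule of sensory axons, rose from day 5 to day 10 by 0.46 (SE 0.14, edgeR adjusted p = 0.0442), beside 4.66% of all rows called higher. In this list, Bcl11a (941 counts), Ldb1 (181) and Emx2 (2010) share exon bases with the opposite rows 4930538E20Rik (4197), Pprc1 (3157) and Emx2os (1071).

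Of 14 genes for pheromone carriers and ligands, 7 were tested and 4 fell at day 10 against vehicle, beside 3.15% of all tested rows called lower: the major urinary protein gene Mup4 (-1.44, SE 0.41, edgeR adjusted p = 0.0349), the lipocalin Lcn4 (-1.55, adjusted p = 0.0392) and the odorant-binding protein genes Obp1b (-1.29, adjusted p = 0.043) and Obp2a (-1.38, adjusted p = 0.027). None of the 7 passed at day 5 (0.66% of all rows), and Lcn4 and Obp2a also fell from day 5 to day 10 (5.49% of all rows called lower). The median of the 7 was -1.38 at day 10, -0.24 at day 5 and -1.15 between the days. Mup5 held 86, 65 and 12 counts over vehicle, day 5 and day 10, a day 10 change of -2.31 (SE 0.73, adjusted p = 0.0538). Lcn3 changed by -0.85 (SE 0.34, adjusted p = 0.128) and Obp1a by -0.27 (SE 0.33, adjusted p = 0.665), neither passing. Of the listed genes too sparse to test, Mup3 held 3 counts, Esp1 held 1, and Esp4, Esp6 and Mup20 held 0. The listed genes encode secreted proteins rather than receptors, and the list was chosen with earlier results of these data known.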

How the data were processed

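The deposited values are whole-number counts per gene row in 12 libraries. Per the submitters' processing notes, the authors used FastQC, Trim Galore, STAR, HTSeq and the build mm10, with versions, annotation release, counting mode and strand setting not given in the sources used here. Every column was mapped to a sample by its name, leaving 0 unmapped. Replicates differed by more than counting noise, with a chi-square per row of 3.09 to 7.02 within vehicle and day 5 and 4.57 to 6.02 among day 10 replicates 2, 3 and 5. Counts were not TMM-scaled for this value, and CT010467.2 was kept in. The members and gene lists were chosen with earlier results of these data known. Rows were kept by filterByExpr (13181 of 55487), scaled by TMM and tested with edgeR 4.0.16 in R 4.3.3 (quasi-likelihood F test, group as the sole term, all 12 libraries, Benjamini-Hochberg adjusted p under 0.05 over all tested rows), with DESeq2 1.42.0 as an alternative. On simulated data for day 10 against vehicle over 13181 rows, 46% of 2-fold and 84% of 4-fold changes were recovered, and 4.41% of the calls were false. The changed rows were drawn at random from all tested rows, so these rates do not describe the sparse receptor rows. Levels per group are TMM-scaled CPM, and summed shares are CPM of the library total. Intervals and floors cover counting error only. Positions, lengths and overlaps of at least 50 exon bases came from GENCODE M21 (GRCm38), where all 593 identifiers were found, and identities from BLAST 2.17.0. Named receptors were those called, the 8 of each type with most counts, the extremes of fold change and those at the minimum; a few others (Vmn1r-ps86, Vmn2r25, Vmn2r113, Vmn2r128, and rows beside or opposite members) were chosen after their values were seen. Alternatives were DESeq2 size factors, no filter, the compared libraries alone, a replicate block, leaving out each replicate, other sets of rows in the sums, and settings added after seeing the data.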

Additional observations from a re-analysis of the deposited data

Results flagged for a closer look

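In 4 of the 42 groups of 4 libraries examined, 1 library stood apart from the other 3 by Dixon's test at the 95% level. Chance marks about 1 in 20 such groups. Vmn1r184 was at 7.22 CPM in day 5 replicate 5, where the other day 5 libraries were at 14.4 to 15.4. Vmn2r-ps3 was at 12.7 CPM in vehicle replicate 6 against 6.22 to 6.71 in the other vehicle libraries. Vmn1r-ps145 was at 7.55 CPM in day 10 replicate 2 against 4.57 to 5.02. Vmn2r65 was at 10.28 CPM in day 10 replicate 5 against 1.26 to 2.06.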

How the results depend on the processing

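Vmn1r184 stayed lower against vehicle at both days, and Vmn1r-ps150 higher at day 5, under all 19 alternatives at day 10 and the 18 at day 5 that gave an adjusted p. The call moved. At day 10 against vehicle, where 1 member was called, leaving out each library in turn gave 0 to 2, and 0 were called with the 8 compared libraries alone (Vmn1r184 adjusted p = 0.0588), with the fit adjusted for the CT010467.2 share and with 3 day 10 libraries left out, which leaves 1 in that group. At day 5, where 2 were called, leaving out each library gave 0 to 2, and DESeq2 gave 0, its adjusted p for both being NA. From day 5 to day 10, where 0 were called, no filter on low counts gave 1 (Vmn1r-ps150, -0.85, adjusted p = 0.0436). Leaving out each library gave 0 to 1, and 1 of those was Vmn1r-ps150 without day 10 replicate 1 (-1.11, adjusted p = 0.017). In the main fit of this comparison 4.66% of all rows were called higher and 5.49% lower. The share of all rows called without the filter, or with a library left out, is not given here for any comparison. The numbers of members called in those fits therefore cannot be set against all rows. With a replicate block, 0 members were called against vehicle at day 10 (Vmn1r184 adjusted p = 0.0915) and 0 at day 5 (0.236, and 0.182 for Vmn1r-ps150), and the day 10 change of Vmn1r-ps150 was -0.02. Only 2 numbers are shared by vehicle and each exposed group, and deviations of same-numbered libraries correlated between -0.0894 and 0.124, so the numbers were not taken as pairs. The type 1 sum, in CPM for vehicle, day 5 and day 10, ranged from 105 to 118, 93.8 to 105 and 69.5 to 83.0 when each library was left out. It was 64.3, 39.7 and 38.4 without pseudogenes, 68.3, 55.8 and 44.7 without Vmn1r184 and Vmn1r-ps150, and 92.7 in vehicle without rows that share exon bases. The type 2 sum ranged from 77.2 to 81.7, 59.9 to 66.6 and 53.7 to 65.0. It was 37.8, 34.5 and 28.6 without pseudogenes and 57.7, 41.2 and 39.3 without rows that share exon bases. In vehicle it was 86.4 with CT010467.2 out of the denominator and 85.9 with no minimum count. Depth limits the sparse rows, since 3 counts equal up to 1.81 CPM of the library total.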
